A study of Mus musculus with 18 samples.

Results

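The collagen genes were followed in Alb-R26Met mice, a mouse model of hepatocellular carcinoma. They were taken as every gene in the deposited table whose symbol has the form Col, a number, a and a number, which gave 44 of 28442 genes. Bulk RNA-seq was performed on non-tumoral livers (n = 6) and advanced tumors (n = 12) from 17 mice, since tumors 11 and 12 came from 1 mouse. All mice were males from F1 C57:129Sv crosses that carried both Alb-Cre and R26stopMet, so the livers had the same genotype as the tumors and came from mice in which no tumor had developed. The albumin promoter drives Cre in cells of the hepatocyte lineage, and recombination there switches on a Met transgene in the Rosa26 locus. Mice were 52 to 71 weeks old for the livers (median 56.5) and 49 to 72 weeks old for the tumors (median 65). Names of 2 livers and 7 tumors carry the tag E19 and those of 4 livers and 5 tumors the tag E20, and what the tags stand for was not given in the sources used here. For tumors 3 and 10 the mouse number in the labels differs from that in the study's list of mice. These 2 were matched by tumor number and tag.

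Collagens are trimers of chains that wind into a triple helix, and each gene encodes 1 chain. Fibrillar collagens such as types I and III build the fibers of scars, type IV forms the sheet-like network of basement membranes, and type VI forms beaded filaments. In the liver, fibrillar collagens come mainly from activated stellate cells and portal fibroblasts, and endothelial cells are a source of type IV. Type XVIII, a basement membrane collagen from which endostatin is cleaved, is made in large amounts by hepatocytes. The sinusoids of a normal liver have no continuous basement membrane.

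Values are TPM, an abundance corrected for gene length and given relative to the sample's total, rounded to whole numbers. The study's methods name a read number per sample, but the TPM carry no counts, which leaves counting error out of reach. A gene listed at 0 may have been below the rounding step. In tumor 2 a single gene, Siglece, held 82.9% of the total, against 17.9% to 53.4% in the other samples, so all other genes shared the rest of that total. Samples were therefore scaled to each other before testing. The scaling factor of tumor 2 was 0.19 and those of the other samples were 0.79 to 1.42. A listed 1 TPM in tumor 2 thus became 5.14 after scaling. Genes that reached a scaled value of 1 in 6 or more samples were tested with limma on log2(scaled value + 1), and p-values were adjusted over all of them by Benjamini-Hochberg. A log2 difference is tumors minus livers on that scale, which understates the change of low genes, and it is given with its standard error (SE). A gene is called higher or lower at an adjusted p below 0.05. Over all tested genes the median log2 difference was -0.064, and without scaling it was -0.18.

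Of the 44 collagen genes, 18 were listed at 0 in every sample. These were Col2a1, Col11a1, Col11a2 and Col24a1 of the fibrillar class, Col4a6, Col8a2, Col10a1, Col6a4, Col28a1, Col7a1, Col9a1, Col9a2, Col9a3, Col19a1, Col22a1, Col17a1, Col25a1 and Col26a1. Several of them are known from cartilage or skin. A further 6 reached 1 TPM or more in some sample but did not pass the filter, and the remaining 20 were tested. Of these 20, 6 were higher in tumors (Col1a1, Col1a2, Col3a1, Col4a1, Col4a2 and Col4a3) and 2 were lower (Col18a1 and Col13a1). Among all 11708 genes tested, 9.77% were higher and 9.28% were lower. Col4a3, Col4a4 and Col6a6 reached a scaled value of 1 in no liver, so they passed the filter through the tumors alone. Their calls, and counts that include them, lean towards higher values in tumors. Col13a1 reached a scaled value of 1 in 4 livers and 2 tumors, and Col20a1 in 5 livers and 3 tumors. They passed mostly through the livers, so calls of these genes, and counts that include them, lean towards lower values in tumors.

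**Figure D1:**
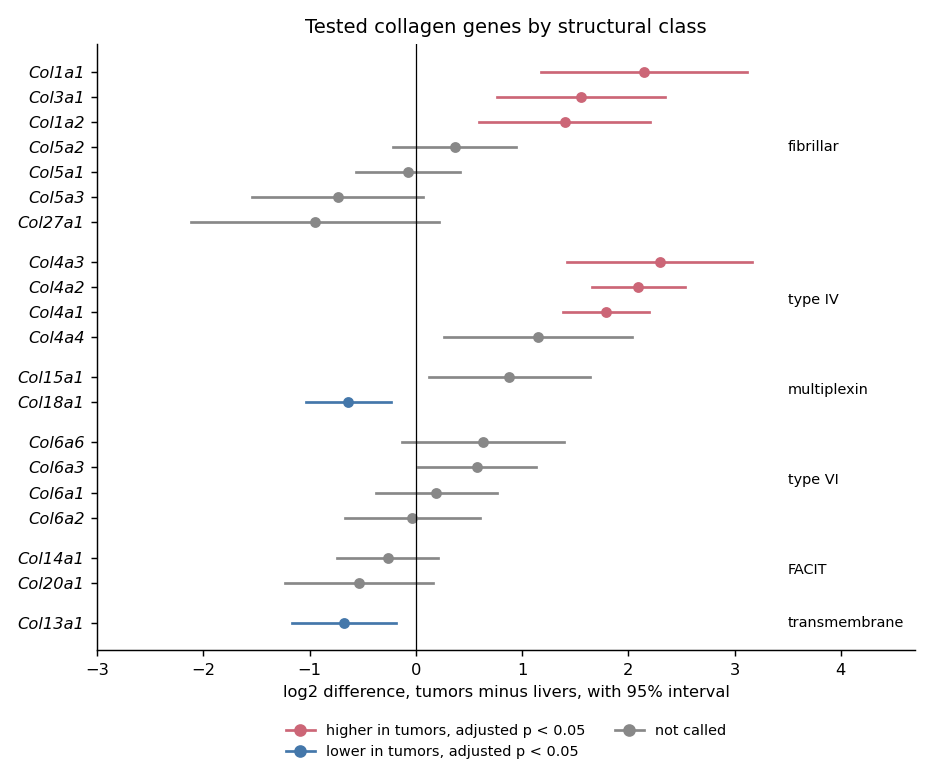
Log2 differences of the 20 tested collagen genes, tumors minus livers (horizontal axis, points with 95% intervals), by structural class. The 3 fibrillar chains Col1a1, Col3a1 and Col1a2 and 3 of the 4 type IV chains lie right of 0 in red, and Col18a1 and Col13a1 lie left of 0 in blue.

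Type IV chains gave the largest separation between groups. Col4a1 and Col4a2 encode the α1 and α2 chains, which assemble into the type IV network of nearly all basement membranes. Col4a1 (chr8:11198423-11312889, GRCm38, minus strand) was listed at 7 TPM in the lowest liver, a median of 8.5 and 12 in the highest, and at 4, 33 and 57 TPM in tumors. Tumor 2 held the 4, and the other 11 tumors lay above every liver. After scaling, livers ranged from 5.53 to 12.1 and tumors from 20.6 to 51.9, without overlap. The log2 difference was 1.79 (SE 0.20, adjusted p = 1.4e-06, limma), a 3.46-fold difference on the fitted scale. Col4a2 (chr8:11312805-11449287, plus strand) went from 2, 5 and 8 TPM in livers (lowest, median, highest) to 4, 24 and 38 TPM in tumors. Its scaled values did not overlap either, and its log2 difference was 2.09 (SE 0.21, adjusted p = 5.02e-07, limma). These were the only 2 of the 20 tested collagen genes with every tumor above every liver after scaling, and 2.18% of all tested genes had that pattern. No tested collagen gene had every tumor below every liver, a pattern found in 0.982% of all tested genes. Both chains were called in samples of tag E19 alone (log2 difference 1.65 for Col4a1 and 2.02 for Col4a2) and of tag E20 alone (1.81 and 2.14). Tumor 11 had the highest scaled value of both chains and tumor 1 the second highest.

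Col4a1 and Col4a2 lie head to head on opposite strands, and their RefSeq gene spans overlap by 85 bases. In the RefSeq promoter table the first transcribed bases are 21 bases apart. The promoter window of Col4a2 (chr8:11312555-11312854, GRCm38.p6, plus strand, 250 bases before the start to 50 after) is printed because it holds the starts of both of the chains that rose together. Capitals mark matches on either strand to CCAAT, to the GC box GGGCGG and to TATAAA.
Col4a2: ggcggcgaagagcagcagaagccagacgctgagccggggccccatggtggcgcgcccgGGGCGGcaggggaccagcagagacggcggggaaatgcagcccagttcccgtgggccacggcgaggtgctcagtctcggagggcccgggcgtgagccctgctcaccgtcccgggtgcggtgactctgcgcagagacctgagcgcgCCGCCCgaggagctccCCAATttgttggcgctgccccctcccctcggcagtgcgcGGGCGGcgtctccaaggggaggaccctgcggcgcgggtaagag
It holds a CCAAT match at position -32 from the start and GC boxes at positions -192, -48 and 8, and no TATAAA. Among all 32851 RefSeq windows of this length, 37.4% hold CCAAT, 35.7% the GC box and 13.6% TATAAA.

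A second head-to-head pair, Col4a3 and Col4a4, encodes the α3 and α4 chains. These join the α5 chain, encoded by Col4a5, in the basement membranes of the kidney glomerulus and lung. Col4a3 (chr1:82586921-82722059, plus strand) was listed at 0 in all 6 livers. In tumors 1 to 12 its values were 15, 1, 6, 2, 3, 20, 7, 3, 4, 0, 2 and 4 TPM, so 11 of 12 tumors were above 0. Col4a3 passed the filter through the tumors alone, so its call leans towards higher values in tumors. The fitted log2 difference was 2.29 (SE 0.42, adjusted p = 0.000558, limma), a value that depends on the 1 added before taking logs because the livers are at 0. Within tag E19 it was 1.91 and not called (adjusted p = 0.0716). Col4a4 (chr1:82448419-82587034, minus strand) was listed at 1 TPM in livers 2 and 6 and at 0 in the others. In tumors 1 to 12 it stood at 7, 0, 4, 1, 1, 13, 3, 2, 1, 0, 1 and 2 TPM. Its log2 difference was 1.15 (SE 0.43) and was not called (adjusted p = 0.0646), although it was without tumor 2 (adjusted p = 0.0227) or without tumor 10 (adjusted p = 0.0318). It was also called without scaling (adjusted p = 0.0467), with the tag as a covariate (adjusted p = 0.0367) and with sample quality weights (adjusted p = 0.0078). Col4a4 reached a scaled value of 1 in no liver, so these calls lean towards higher values in tumors. Tumor 6 had the highest and tumor 1 the second highest scaled value of both genes, and tumor 10 was at 0 in both. Col4a5 was too low to be tested. It was at 0 in all livers, and its highest values, 4 and 3 TPM, were in tumors 1 and 6. The X-linked partner of Col4a5, Col4a6, was at 0 throughout.

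The RefSeq gene spans of Col4a3 and Col4a4 overlap by 114 bases. Whether strand was used in the quantification was not given in the sources used here, so reads from the overlap of either pair could have been assigned to both genes. The window at the start of Col4a4 (chr1:82586800-82587099, minus strand) is shown beside that of Col4a2 as the second start from which type IV chains run in both directions.
Col4a4: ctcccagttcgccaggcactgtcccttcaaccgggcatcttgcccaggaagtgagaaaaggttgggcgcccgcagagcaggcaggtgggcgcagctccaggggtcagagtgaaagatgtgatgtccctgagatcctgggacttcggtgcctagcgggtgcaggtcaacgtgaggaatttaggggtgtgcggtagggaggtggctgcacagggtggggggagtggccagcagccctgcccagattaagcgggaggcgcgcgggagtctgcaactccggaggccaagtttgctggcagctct
None of the 3 motifs was found in it.

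**Figure D2:**
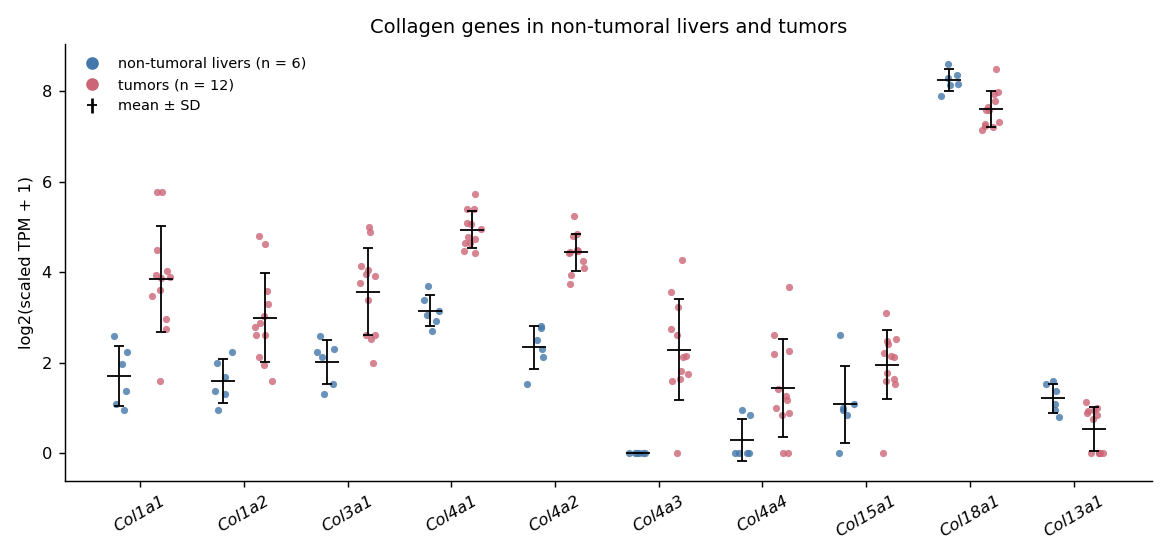
Scaled values of 10 collagen genes, as log2(scaled TPM + 1) on the vertical axis, in livers (blue) and tumors (red), with the mean and SD in black. Col4a1 and Col4a2 show no overlap between groups, all 6 livers are at 0 for Col4a3, and Col18a1 is the highest gene in both groups.

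Fibrillar collagens rose in part. Col1a1, Col1a2 and Col3a1 encode the chains of types I and III, the main fibers of scar tissue. Col1a1 (chr11:94936224-94953042) was listed at 1, 3 and 5 TPM in livers (lowest, median, highest) and at 2, 13 and 62 TPM in tumors. Its log2 difference was 2.15 (SE 0.47, adjusted p = 0.00256, limma), and 11 of 12 tumors exceeded the highest liver after scaling, with tumor 4 inside the range of livers. In deposited TPM 10 exceeded it, and tumor 2 stood at 3 TPM, which scaling turned into 15.4. Col1a2 (chr6:4505618-4541543) was at 1, 2 and 4 TPM in livers and at 1, 7 and 31 TPM in tumors, with a log2 difference of 1.40 (SE 0.39, adjusted p = 0.0139). Col3a1 (chr1:45311538-45349706) was at 2, 3.5 and 5 TPM in livers and at 1, 13 and 34 TPM in tumors, with a log2 difference of 1.56 (SE 0.38, adjusted p = 0.00619). The spread among tumors was wide. Tumors 6 and 10 stood at 59 and 62 TPM for Col1a1, 26 and 31 TPM for Col1a2 and 34 and 33 TPM for Col3a1, while tumor 4 stood at 2, 2 and 3 TPM. Within tag E19 (2 livers and 7 tumors) none of the 3 chains was called, with log2 differences of 1.96, 1.20 and 1.31 for Col1a1, Col1a2 and Col3a1 (adjusted p = 0.149, 0.25 and 0.192). Within tag E20, Col1a1 was called (2.33, adjusted p = 0.0268), and Col1a2 (1.5, adjusted p = 0.103) and Col3a1 (1.66, adjusted p = 0.0767) were not.

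The promoter windows of Col1a2 (chr6:4505368-4505667, plus strand) and Col3a1 (chr1:45311288-45311587, plus strand) are printed for comparison, since both genes followed Col1a1 across tumors and start from windows with different motifs.
Col1a2: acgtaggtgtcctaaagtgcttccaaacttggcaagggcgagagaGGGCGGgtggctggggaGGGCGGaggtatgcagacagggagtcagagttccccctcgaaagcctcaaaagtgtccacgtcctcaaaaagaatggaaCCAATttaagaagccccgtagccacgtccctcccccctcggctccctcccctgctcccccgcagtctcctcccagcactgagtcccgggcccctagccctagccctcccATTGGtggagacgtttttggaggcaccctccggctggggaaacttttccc
Col3a1: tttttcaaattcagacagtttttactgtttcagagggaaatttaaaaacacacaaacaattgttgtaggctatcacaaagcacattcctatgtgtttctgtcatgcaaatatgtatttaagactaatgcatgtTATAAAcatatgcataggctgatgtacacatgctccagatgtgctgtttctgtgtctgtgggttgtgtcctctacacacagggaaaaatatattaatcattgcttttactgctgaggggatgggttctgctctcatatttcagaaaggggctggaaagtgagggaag
The Col1a2 window holds GC boxes at positions -205 and -188 and CCAAT matches at positions -109 and 1, and 61.0% of its bases are G or C. The Col3a1 window holds TATAAA at position -117 and neither of the other motifs, and 37.7% of its bases are G or C. Of the 44 collagen genes, 35 matched at least 1 window in the table, and Col1a1 and Col4a3 were among those without one.

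The other 4 tested fibrillar genes were not called. Col5a1 and Col5a2 encode chains of type V, which starts and limits the growth of type I fibrils, and gave log2 differences of -0.08 (SE 0.24, adjusted p = 0.868) and 0.36 (SE 0.28, adjusted p = 0.415). Col5a1 was listed at 2, 3 and 3 TPM in livers (lowest, median, highest) and at 1, 2 and 5 TPM in tumors. Col5a2 is the genomic neighbor of Col3a1, 24625 bases away, and did not exceed 3 TPM. The log2 difference of Col5a3, the remaining type V chain, was -0.74 (SE 0.39, adjusted p = 0.202), and it was called lower without tumor 2 (adjusted p = 0.0218) and without scaling (log2 difference -0.89, adjusted p = 0.0465). Col27a1 encodes a fibrillar collagen known from cartilage. It was the highest fibrillar gene in livers, at 4, 26.5 and 51 TPM, and stood at 3, 8 and 38 TPM in tumors. The groups overlapped widely, and its log2 difference was -0.95 (SE 0.56, adjusted p = 0.265). It was lower within tag E19 (log2 difference -1.84, adjusted p = 0.0075) and not within tag E20 (0.26, adjusted p = 0.883). The difference between tags was 2.15 (SE 0.92, unadjusted p = 0.0312, adjusted p = 0.971 over all genes, limma) and did not pass.

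Among the multiplexins, which sit at the outer face of basement membranes, the abundant member fell. Col18a1 (chr10:77052178-77166530) was by far the highest collagen gene, at 249, 353.5 and 429 TPM in livers and 70, 180.5 and 295 TPM in tumors. Its log2 difference was -0.64 (SE 0.19, adjusted p = 0.0235, limma), and 9 of 12 tumors lay below the lowest liver after scaling. The call was lost without scaling (log2 difference -0.84, adjusted p = 0.186) and without liver 2, 4 or 6 (adjusted p = 0.0575, 0.0736 and 0.0508). It was also lost within tag E19 (-0.85, adjusted p = 0.0519) and within tag E20 (-0.38, adjusted p = 0.538). Tumor 2 had the highest scaled value of all tumors for this gene, at 360, from the lowest deposited value. RefSeq gives Col18a1 starts 52825 bases apart, and the gene-level values do not separate transcripts from these starts. The hepatocyte genes set beside it did not move in 1 direction. Of 6 hepatocyte markers, 1 was higher (Apoa1, 0.91) and 2 were lower (Cyp2e1, -2.82, and Ass1, -1.83). The summed deposited TPM of all 6 ranged from 40223 to 54950 in livers and from 10300 to 77447 in tumors. These sums are not scaled, so that of tumor 2 is lowered by the share of Siglece. The part of the hepatocyte genes in the fall of Col18a1 was not tested. Col15a1, the other multiplexin, encodes a collagen of vessels and muscle. It was listed at 0, 1 and 7 TPM in livers and 0, 4 and 6 TPM in tumors, with a log2 difference of 0.88 (SE 0.36) that was not called (adjusted p = 0.101). Liver 1 held the 7 TPM and the other livers 0 or 1, and Col15a1 was called without liver 1 (adjusted p = 0.0175) or without tumor 2 (adjusted p = 0.0106).

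No type VI or fibril-associated gene was called, and the only transmembrane gene tested was lower. Type VI forms a filament network around cells from the chains of Col6a1, Col6a2 and Col6a3. Their log2 differences were 0.19 (SE 0.27, adjusted p = 0.697), -0.03 (SE 0.30, adjusted p = 0.957) and 0.58 (SE 0.27, adjusted p = 0.142). Col6a3 was listed at 1, 3 and 3 TPM in livers and 1, 3.5 and 8 TPM in tumors, and the later-described chain Col6a6 gave 0.63 (SE 0.37, adjusted p = 0.255). With the tag as a covariate Col6a6 was called higher (0.89, adjusted p = 0.0339), but it passed the filter through the tumors alone. Of the fibril-associated collagens (FACIT), which coat the surface of fibrils, Col14a1 was at 7, 12 and 14 TPM in livers and 2, 8 and 23 TPM in tumors. Its log2 difference was -0.27 (SE 0.23, adjusted p = 0.474), and that of Col20a1 was -0.54 (SE 0.33, adjusted p = 0.293). Col13a1 (chr10:61838234-61979206) encodes a transmembrane collagen of cell contacts. It was at 1 or 2 TPM in livers and at 0 or 1 TPM in tumors, 7 of them above 0, so its call (log2 difference -0.67, SE 0.24, adjusted p = 0.049) rests on values close to the rounding step. It was lost without scaling (adjusted p = 0.073), with age as a covariate (adjusted p = 0.0637), with a pseudocount of 0.5 (adjusted p = 0.0611), with tumors 11 and 12 of 1 mouse averaged (adjusted p = 0.0583) and without liver 3, tumor 6 or tumor 11 (adjusted p = 0.0628, 0.05 and 0.0793). With any other sample left out except tumor 2 or 3, Col13a1 no longer passed the filter.

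The 6 genes above 0 that were not tested reached at most 5 TPM. Besides Col4a5 they were Col8a1 of endothelial and vessel wall matrix, Col6a5, the fibril-associated Col12a1 and Col16a1, and the transmembrane Col23a1. Col23a1 was at 4 TPM in tumor 10 and at 0 in all other samples. Tumor 10 was also the highest sample for Col12a1 (5 TPM), Col8a1 (4 TPM) and Col6a5 (3 TPM). Col16a1 was at 1 TPM in all 6 livers and above 0 in 5 of 12 tumors, and it was called lower when the filter was left out.

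**Figure D3:**
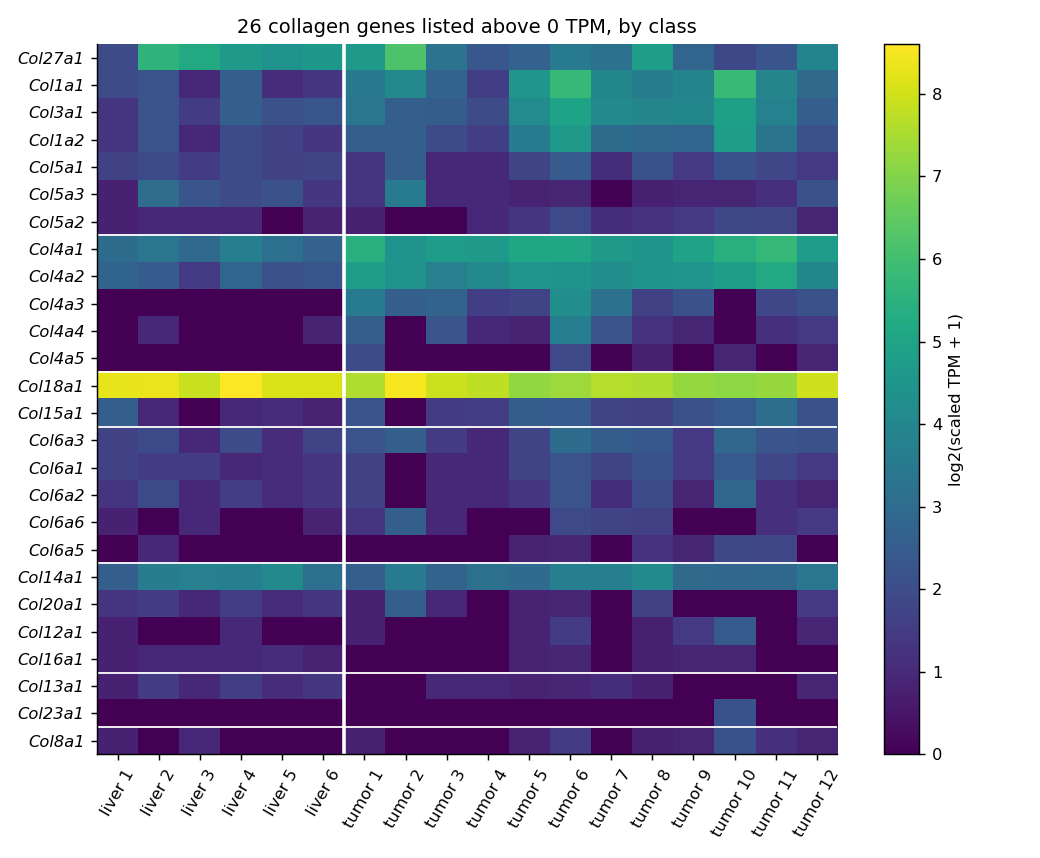
Heat map of log2(scaled TPM + 1) for the 26 collagen genes listed above 0 TPM (rows, by class) in each liver and tumor (columns). Tumors 6 and 10 are brightest for Col1a1, Col1a2 and Col3a1, tumors 6 and 1 for Col4a3 and Col4a4, and Col18a1 is bright throughout.

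The make-up of the collagen transcripts differed between groups. The summed deposited TPM of all collagen genes was 309, 453 and 493 in livers (lowest, median, highest) and 106, 354 and 485 in tumors. After scaling the sums were 312, 354 and 475 in livers and 268, 334 and 545 in tumors, and tumor 2, the lowest before, became the highest. Shares of the sum are taken within a sample and do not depend on the scaling. Col18a1 alone made up 74.7%, 81.1% and 87.0% of the sum in livers and 37.9%, 56.0% and 75.3% in tumors. Only tumor 4 reached the range of livers. Type IV chains made up 2.73%, 3.33% and 3.81% in livers and 8.49%, 17.5% and 29.0% in tumors, without overlap. The share of fibrillar collagens was 3.45%, 9.69% and 16.1% in livers and 4.86%, 15.7% and 32.2% in tumors, with wide overlap. These shares are sums over genes that include those called above and were not tested on their own.

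**Figure D4:**
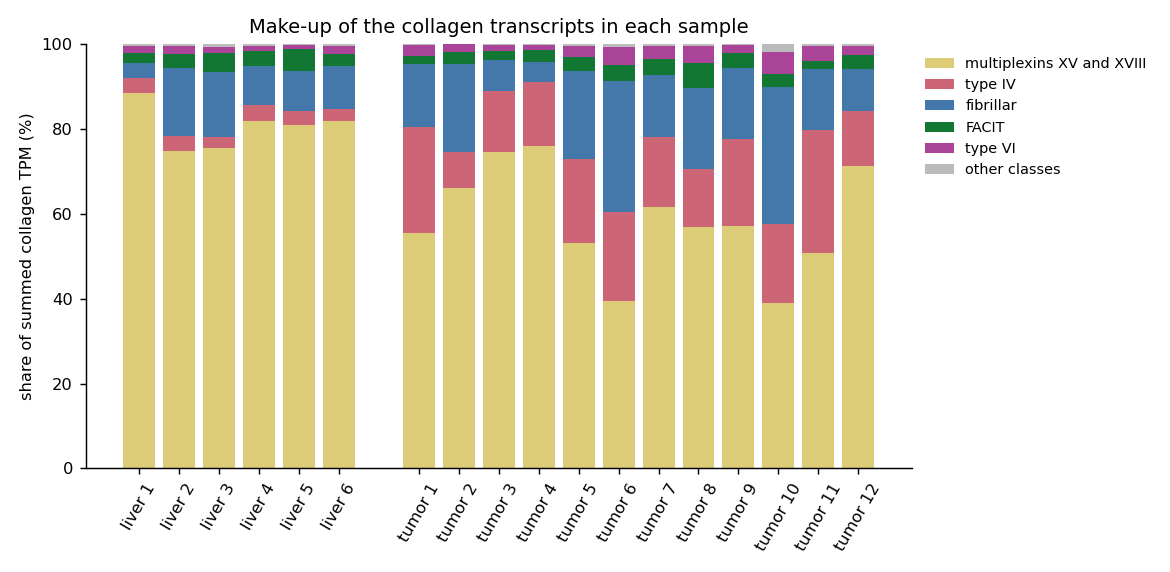
Share of the summed collagen TPM by class (vertical axis, %) in each liver and tumor. The multiplexins, mostly Col18a1, hold 74.9% to 88.4% in livers and 39.1% to 76.0% in tumors, and the type IV part (red) is larger in every tumor than in any liver.

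Ratios between chains were then compared within samples, as log2((a + 1)/(b + 1)) of TPM, for 8 pairs. Col1a1 and Col1a2 join in type I collagen as 2 α1 chains with 1 α2 chain. Their log2 ratio was 0.12 ± 0.48 (SD, n = 6) in livers and 0.83 ± 0.30 (SD, n = 12) in tumors, a difference of 0.70 (exact permutation test, two-sided, p = 0.00135, adjusted p = 0.00539 over the 8 pairs). In group means without the added 1, Col1a1 stood at 1.21 times Col1a2 in livers and 2.02 times in tumors. The ratio of Col15a1 to Col18a1 differed by 1.73 (exact permutation test, p = 0.000431, adjusted p = 0.00345), from -7.20 ± 0.78 (SD, n = 6) to -5.47 ± 0.73 (SD, n = 12). Col15a1 was at 0 or 1 TPM in all livers but liver 1, so the added 1 weighs heavily on their ratios. In tumor 2, with Col15a1 at 0 TPM and Col18a1 at 70 TPM, the ratio of -6.15 comes from the added 1 and the low TPM of that sample. The ratio of Col5a1 to Col5a2 fell by 0.57 (exact permutation test, p = 0.0152, adjusted p = 0.0405), from 1.03 ± 0.32 (SD, n = 6) to 0.46 ± 0.40 (SD, n = 12), on genes of at most 5 TPM. The difference was -1.04 within tag E19 (exact permutation test, p = 0.0556) and -0.15 within tag E20 (p = 0.524), so it did not pass within either tag. The other 5 pairs did not pass: Col1a1 to Col3a1 differed by 0.55 (exact permutation test, adjusted p = 0.115), and Col4a1 to Col4a2 by -0.31 (adjusted p = 0.133). The differences were 0.22 for Col6a1 to Col6a2 (exact permutation test, adjusted p = 0.333), 0.25 for Col6a3 to Col6a1 (adjusted p = 0.326) and -0.38 for Col4a1 to Col1a1 (adjusted p = 0.43). In livers the type I chains are at 1 to 5 TPM, where rounding and the added 1 pull a log ratio towards 0.

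**Figure D5:**
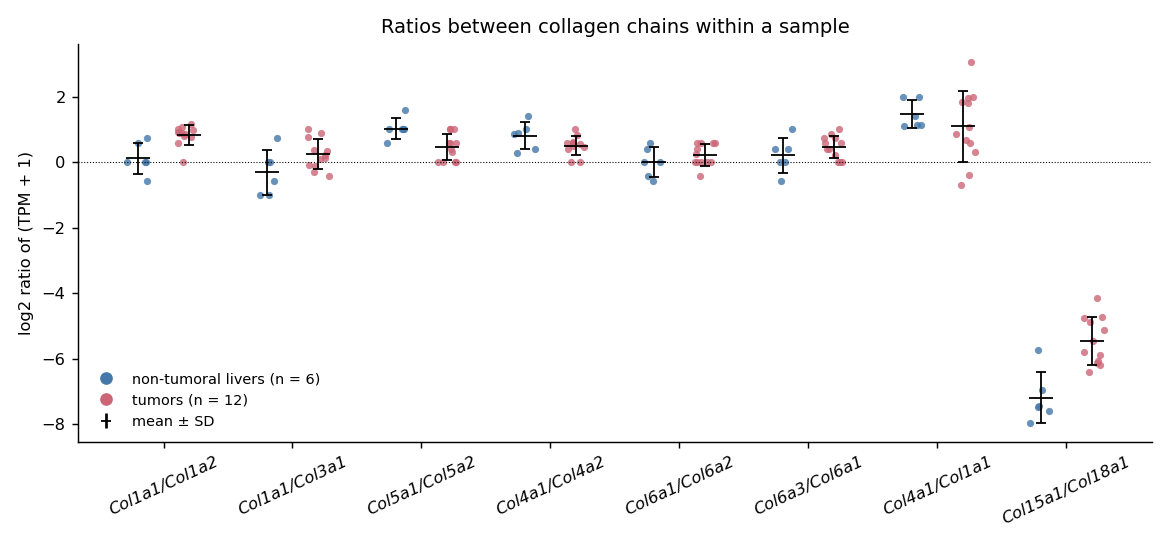
Log2 ratios of (TPM + 1) between collagen chains within each sample, in livers (blue) and tumors (red), with the mean and SD in black. The ratio of Col1a1 to Col1a2 is 0.70 higher in tumors on average, and the ratio of Col15a1 to Col18a1 is 1.73 higher.

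Across the 12 tumors, 11 measures were correlated with Col1a1 on log2(scaled value + 1), with 100000 permutations. Col1a2 followed Col1a1 closely (Pearson's r = 0.966, permutation p = 1e-05, the smallest these permutations can give, adjusted p = 0.00011). Spearman's rho was 0.916 (permutation p = 0.00014), and r was 0.962 without tumors 4 and 10, the 2 farthest from the median of Col1a1. Col3a1 gave r = 0.897 (permutation p = 4e-05, adjusted p = 0.00022), rho = 0.867 (permutation p = 0.00043) and r = 0.818 without those tumors. Col6a3 gave r = 0.777 (permutation p = 0.00301, adjusted p = 0.011) and rho = 0.741 (permutation p = 0.008). Without those tumors it gave r = 0.577 (permutation p = 0.0763), with fewer tumors and a narrower range of Col1a1. For Col4a1, r was 0.401 (permutation p = 0.198) and rho 0.259 (permutation p = 0.416). For Col15a1, r was 0.305 (permutation p = 0.324) and rho 0.511 (permutation p = 0.0935). For Col5a2, r was 0.568 (permutation p = 0.053) and rho 0.627 (permutation p = 0.0332), with adjusted p = 0.146 and 0.0913. For Col18a1, r was -0.50 (permutation p = 0.0974) and rho -0.57 (permutation p = 0.0557). Without scaling r was 0.099, so its sign depends on the scaling when tumor 2 is included. Without tumor 2 r was -0.76 on scaled values. Age gave r = 0.316 (permutation p = 0.32) and rho = 0.337 (permutation p = 0.28).

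Genes that process or bind collagen were read from the same fit. Of 15 genes of prolyl and lysyl modification, which stabilizes and cross-links the helix, 9 were tested, 3 were higher (Crtap, 0.68, adjusted p = 0.0172; Plod3, 0.54, adjusted p = 0.0496; P3h1, 0.71, adjusted p = 0.05 after rounding) and none was lower. Of 10 genes of folding and export 8 were tested and 2 were higher, the transcription factor gene Creb3l2 (1.04, adjusted p = 0.000212) and Serpinh1 (0.74, adjusted p = 0.0266), which encodes the collagen chaperone HSP47. Of 10 genes of procollagen trimming 4 were tested and none was called, with Pcolce at 0.50 (adjusted p = 0.0962) nearest to the threshold. Of 10 collagen receptors 7 were tested and 3 were higher, namely Itga2 (1.29, adjusted p = 0.00253), Itgb1 (0.58, adjusted p = 0.0217) and Ddr1 (1.46, adjusted p = 0.0342). Itga2 was listed at 0 in all livers, so it passed the filter through the tumors alone and its call and this count lean towards higher values in tumors. Ddr1 was at 1, 1 and 42 TPM in livers (lowest, median, highest) and at 1, 7.5 and 24 TPM in tumors, so no tumor exceeded the highest liver. Of 10 collagen-binding matrix genes 8 were tested. Nid1, whose product links type IV collagen to laminin, rose from 2, 3 and 35 TPM in livers (lowest, median, highest) to 25, 78 and 131 TPM in tumors (log2 difference 3.91, SE 0.34, adjusted p = 5.2e-08, limma). Sparc rose from 14, 22 and 26 TPM to 30, 151.5 and 256 TPM (2.51, SE 0.33, adjusted p = 1.76e-05). The small proteoglycan gene Dcn fell from 41, 47 and 55 TPM to 2, 18 and 55 TPM (-1.30, SE 0.26, adjusted p = 0.00115), and Tnxb was also lower (-1.19, adjusted p = 0.0283). The shares of these lists stand beside 9.77% and 9.28% over all genes and were given no test.

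Markers of cells that make collagen, and of other cell types of the liver, were set beside these values. In bulk tissue, fewer cells of a type and less RNA per cell cannot be told apart. Of 10 markers of stellate cells and fibroblasts 8 were tested, none was higher, and 3 were lower (Pdgfra, -0.86, Lrat, -1.11, and Des, -0.61, with adjusted p = 0.0134, 0.0191 and 0.0304). In livers they were listed at 2 to 5, 3 to 8 and 2 to 3 TPM, and in tumors at 0 to 3, 0 to 8 and 0 to 3 TPM. These calls thus rest on low values close to the rounding step. The other 5 were not called, with log2 differences of 0.80 for Acta2, 0.38 for Tagln, 0.24 for Pdgfrb, 0.19 for Reln and -0.50 for Rgs5 (adjusted p = 0.134, 0.507, 0.536, 0.7 and 0.0652). Acta2 and Tagln mark contractile myofibroblasts, and their values, like those of the other 3, were read after the 3 calls were seen. Summed over the list, marker TPM was 45, 53.5 and 72 in livers (lowest, median, highest) and 7, 51.5 and 111 in tumors, and Gli1 was at 0 in every sample. Across tumors, Pdgfrb gave r = 0.534 with Col1a1 (permutation p = 0.0787, rho = 0.566, permutation p = 0.0588) and Dcn gave r = -0.40 (permutation p = 0.201, rho = -0.41, permutation p = 0.192), which became 0.195 without scaling. Of 8 endothelial markers, all tested, 3 were higher, namely Pecam1 (1.15, adjusted p = 0.000296), Cdh5 (0.93, adjusted p = 0.000385) and Cd34 (1.24, adjusted p = 0.00856), and none was lower. The others were not called. Log2 differences were 0.51 for Kdr, 0.47 for Lyve1, 0.24 for Plvap, -0.42 for Stab2 and -0.54 for Vwf (limma, adjusted p = 0.156, 0.629, 0.35, 0.578 and 0.225). The rescaled tumor 2 had the highest scaled value of Lyve1, 144 against medians of 7.06 in livers and 8.40 in tumors. It was also the highest for Stab2, at 30.8 against medians of 10.2 and 8.03. These values were read after the calls were seen. The summed TPM of all 8 was 46, 57.5 and 74 in livers and 41, 78.5 and 110 in tumors. Pecam1 gave r = -0.15 with Col1a1 (permutation p = 0.643, rho = -0.098, permutation p = 0.764), which became 0.359 without scaling. Of the mesothelial markers 1 of 4 was tested and was higher (Gpm6a, 1.29), but Gpm6a was listed at 0 in every liver and passed the filter through the tumors alone. Wt1 was at 0 throughout. Of the Kupffer cell markers 6 of 7 were tested and 1 was lower (Clec4f, -1.47). Of the cholangiocyte and leukocyte markers, 1 of 5 (Sox9, 0.45) and 1 of 3 (Ptprc, -0.015) were tested and neither was called. The part of these cell types in the differences of the collagen genes was not tested.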

How the data were processed

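Per the labels and the study's methods, poly-A libraries were read paired end, reads were mapped to GRCm38, and Salmon estimates were converted to TPM by the authors. The submitters' processing notes also name edgeR. The authors deposited whole numbers (unit score here), called raw counts with the deposit and read here as rounded TPM, since 882 of 900 values that the study also gives as unrounded TPM equal them within 0.5 and no sample's total exceeds 907513. In 8 lines an extra separator was removed.

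Samples were scaled by an unweighted trimmed mean of M values (trimming 30% of M and 5% of A values at each end), genes were kept at 1 or more in 6 samples, and fitted on log2(value + 1) with limma 3.58.1 (R 4.3.3, trend in the prior variance) over 6 livers and 12 tumors. The fit was tested on simulated data. Ratios were tested by exact permutation over 18564 splits, correlations by 100000 permutations (Python 3.11.15, numpy 2.4.6, scipy 1.17.1, pandas 2.3.3), and figures drawn with matplotlib 3.10.9. Samples were grouped by their titles. P-values measure the spread between these samples. Every tested collagen gene is named, levels are given for the 12 with the highest mean scaled value and for those called, and up to 4 genes of each other list by adjusted p. Of the stellate cell and endothelial markers all tested ones are named. The levels of Col4a4, Col4a5 and the untested genes by sample, those of Ddr1, Pdgfra, Lrat, Des, Lyve1 and Stab2, and the named tumors, were chosen after their values were seen. Positions and promoters are RefSeq's (GRCm38.p6), strands GENCODE's. Members and lists were chosen with earlier results of these data known. Alternatives covered scaling, pseudocount, filter, tag, age, replicate block, averaged tumors, quality weights and each sample left out.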

Additional observations from a re-analysis of the deposited data

Results flagged for a closer look

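In the 6 livers a single sample stood apart from the others for 2 of 28 collagen results by Dixon's 95% limit, with its gap to the nearest sample divided by the range of the group. For Col5a2 this ratio was 1, since 1 liver was listed at 0 TPM and the other 5 at 1 TPM. For Col15a1 it was 0.857, from the 7 TPM of liver 1. Chance flags about 1 in 20 such groups, or 1.4 of 28. Tumors, more than 10, were not examined in this way.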

How the results depend on the processing

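Col4a1 and Col4a2 were called higher under every alternative run, with adjusted p-values of at most 0.0068 and 0.0052 (limma). The count of collagen genes higher in tumors was 6, with 2 in samples of tag E19 alone and 3 in tag E20 alone, where fewer samples entered. It was 6 to 8 with each sample left out, 7 without scaling (Col4a4 added), 8 with the tag as a covariate (Col4a4 and Col6a6 added) and 8 with sample quality weights (Col4a4 and Col15a1 added). The count of genes lower was 2, and 3 without the filter (Col16a1 added). It was 1 without scaling, with median of ratios scaling, with a pseudocount of 0.5, with age as a covariate, with the tumors of 1 mouse averaged and in tag E19 alone, 0 in tag E20 alone, and 5 with sample quality weights (Col5a3, Col20a1 and Col27a1 added). The 1 gene was Col5a3 without scaling and Col27a1 in tag E19, neither of the 2 called in all samples, and Col18a1 in the other 4 of these settings. With each sample left out it was 0 to 3, with 0 without liver 2, 4 or 6 and 3 without tumor 2. The causes were not tested.

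The same replicate numbers occur in livers and tumors, but same-numbered samples came from different mice, so the numbers were not taken as pairs. Same-numbered samples deviated together with correlations of -0.10 to 0.42, below 0.1 in 3 of 6 cases. The mean correlation of a liver with the other-numbered tumors among tumors 1 to 6 was -0.10 to 0.030. It was below the same-numbered value except for liver 3. Liver 3 and tumor 3 are also the only same-numbered samples with different tags. With a replicate block, 5 collagen genes were higher and 0 lower over livers and tumors 1 to 6, and without the block the same samples gave 4 and 0. Col6a1 was -0.085 in both of these fits.

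Log2 differences changed sign only for genes that were not called. In tag E20 alone they were 0.17 for Col14a1, 0.19 for Col20a1, 0.26 for Col27a1, 0.28 for Col5a1 and -0.027 for Col6a1. In tag E19 alone Col6a2 was at 0.034, and with each sample left out it was -0.17 to 0.10. Col5a1 was at 0.0055 with the tag as a covariate. In tag E19 alone the ratio of Col1a1 to Col1a2 differed by 0.75 (exact permutation test, p = 0.0833), that of Col5a1 to Col5a2 by -1.04 and that of Col6a3 to Col6a1 by -0.19, and in tag E20 alone Col5a1 to Col5a2 differed by -0.15. With each sample left out the ratio of Col1a1 to Col3a1 differed by 0.41 to 0.76 and that of Col4a1 to Col4a2 by -0.41 to -0.19, with an unadjusted p below 0.05 (exact permutation test) without liver 1, tumor 4 or tumor 8 for the first and without liver 1, liver 6 or tumor 3 for the second.

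Correlations with Col1a1 depended on the scaling. Without it r was 0.795 for Col5a2, 0.597 for Col4a1, 0.682 for Col15a1, 0.668 for Pdgfrb, 0.099 for Col18a1, 0.195 for Dcn and 0.359 for Pecam1, the last 3 with a changed sign. Without tumor 2 r was 0.715 for Col5a2 and -0.76 for Col18a1. Without the 2 tumors farthest from the median it was 0.577 for Col6a3.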
